A study of Mus musculus with 7 samples.

Results

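Granule docking and exocytosis genes were examined in pancreatic islets of db/db mice, a model of obesity and diabetes that carries a leptin receptor mutation. The 37 genes were taken from a list of proteins known to tether, dock, prime and fuse secretory granules, and each symbol was matched to 1 of the 51912 Ensembl gene rows of the count table. All 37 were found, and 36 passed the filter on low counts, with Cplx1 as the exception.

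The mice had received an adeno-associated virus (AAV) vector for adipsin or, as the control, for green fluorescent protein (GFP). Adipsin, or complement factor D, is a serine protease that circulates in blood and is made mainly by fat. Both groups were db/db, carried a vector for 4 weeks, and had their islets kept for 12 hours in culture before RNA was extracted. There were 3 AAV-Adipsin libraries and 4 AAV-GFP libraries of messenger RNA, each from a separate mouse, and none from mice without diabetes. No label states the age or sex of the mice, the vector dose or the promoter that drives the vector.

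Secreted hormones such as insulin are stored in dense-core granules. A granule is brought to the plasma membrane by RAB GTPases and their effectors, is primed there, and fuses when SNARE proteins of the granule and of the plasma membrane zip together. Synaptotagmins and related proteins couple fusion to the calcium that enters through voltage-gated channels, and SNARE complexes are then taken apart for reuse. Much of this machinery is shared between endocrine cells and neurons, and some of its members also serve other secretory cells, such as the acinar cells around the islets.

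Total counts per library ran from 29601707 to 43997400. Cfd, the gene of adipsin, was counted 3965, 839 and 1481 times in AAV-Adipsin islets, against 1, 0, 0 and 0 times in AAV-GFP islets. The summed beta cell markers stood at 164060 to 204313 CPM (reads counted per 1e6, with scaled library sizes) in AAV-Adipsin and at 173160 to 203097 CPM in AAV-GFP. The 10 acinar markers summed to 3097 to 11881 CPM in AAV-Adipsin and to 2515 to 16523 CPM in AAV-GFP. Among the neuron markers, Elavl3 stayed at or under 0.155 CPM in every library, while Th reached 76.3 CPM. The description field names replicate 1 of either group by its treatment (treatment-named) and every other library by a db number (db-numbered), and these description styles stand apart over many genes. AAV-GFP replicate 4 also stands apart, as set out below. Values without them stand beside the results they move most.

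The exocytosis genes were mostly abundant. Together they took 0.793% to 0.854% of the counts of an AAV-Adipsin library and 0.729% to 0.858% of an AAV-GFP library. Levels of different genes were compared as CPM per kilobase of annotated exon, since a longer transcript gives more reads. On this scale the median member stood at the 88.2nd percentile of the 16504 genes tested, 18 of the 36 tested were among the top 10%, and 6 were below the median gene. Annotated exon length joins the exons of all transcripts of a gene, so the level of a gene with a long rare transcript is understated.

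Syt13, an atypical synaptotagmin that lacks the residues for calcium binding, was the most abundant member. It had 1423, 1170 and 1234 CPM in the AAV-Adipsin libraries, against 1387, 1252, 1239 and 1181 CPM in the AAV-GFP libraries. That is 337.5 ± 26.0 CPM per kilobase over all libraries (SD, n = 7), which ranked 59th among the genes tested. The next member was Ptprn, which encodes IA-2, a transmembrane protein of the granule and an autoantigen in human type 1 diabetes. Ptprn had 1156, 1261 and 1310 CPM in AAV-Adipsin and 1195, 1276, 1304 and 1249 CPM in AAV-GFP, or 294.2 ± 13.3 CPM per kilobase (SD, n = 7). Syt13 exceeded Ptprn in each of the groups by this measure, and their ranges over the 7 libraries, 311 to 378 and 272 to 308 CPM per kilobase, did not overlap. This order rests on the annotated exon lengths, 3.76 kb for Syt13 and 4.25 kb for Ptprn, whose uncertainty the ranges do not measure. In CPM, Ptprn lay above Syt13 in every db-numbered library and below it in both treatment-named libraries.

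Cplx2, a complexin, which binds the assembled SNARE complex, came next at 159.9 ± 22.8 CPM per kilobase (SD, n = 7). It had 957, 697 and 687 CPM in AAV-Adipsin and 891, 860, 741 and 682 CPM in AAV-GFP, with the libraries of both groups spread over the same range. Ptprn2, which encodes the IA-2 relative phogrin, had 999, 945 and 974.9 CPM in AAV-Adipsin, against 944, 1033, 928 and 619 CPM in AAV-GFP, where replicate 4 lay well below the others. Ptprn2 followed at 107.0 ± 16.03 CPM per kilobase (SD, n = 7).

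A group of RAB, synaptotagmin and SNARE genes followed at about the same level. Rab3d, a small GTPase of secretory granules, had 284, 336 and 313 CPM in AAV-Adipsin and 285, 324, 332 and 329 CPM in AAV-GFP. Rab27a, the GTPase that recruits the docking effectors, had 272, 274 and 298 CPM in AAV-Adipsin and 269, 301, 287 and 282 CPM in AAV-GFP. These 2 stood at 74.97 ± 5.22 and 73.1 ± 3.29 CPM per kilobase (SD, n = 7 each), a difference smaller than their spread over libraries. Syt4, another atypical synaptotagmin, had 232, 216 and 241 CPM in AAV-Adipsin and 225, 266, 283 and 189 CPM in AAV-GFP. Napa, the adaptor alpha-SNAP that brings the ATPase NSF to used SNARE complexes, had 234, 213 and 209 CPM in AAV-Adipsin and 234, 228, 229 and 228 CPM in AAV-GFP. Syt4, Napa, Vamp2 and Syt7 stood at 60.7, 59.4, 59.3 and 59.2 CPM per kilobase with SDs of 8.11, 2.72, 6.28 and 5.37 (n = 7 each), so their order was not resolved.

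**Figure D1:**
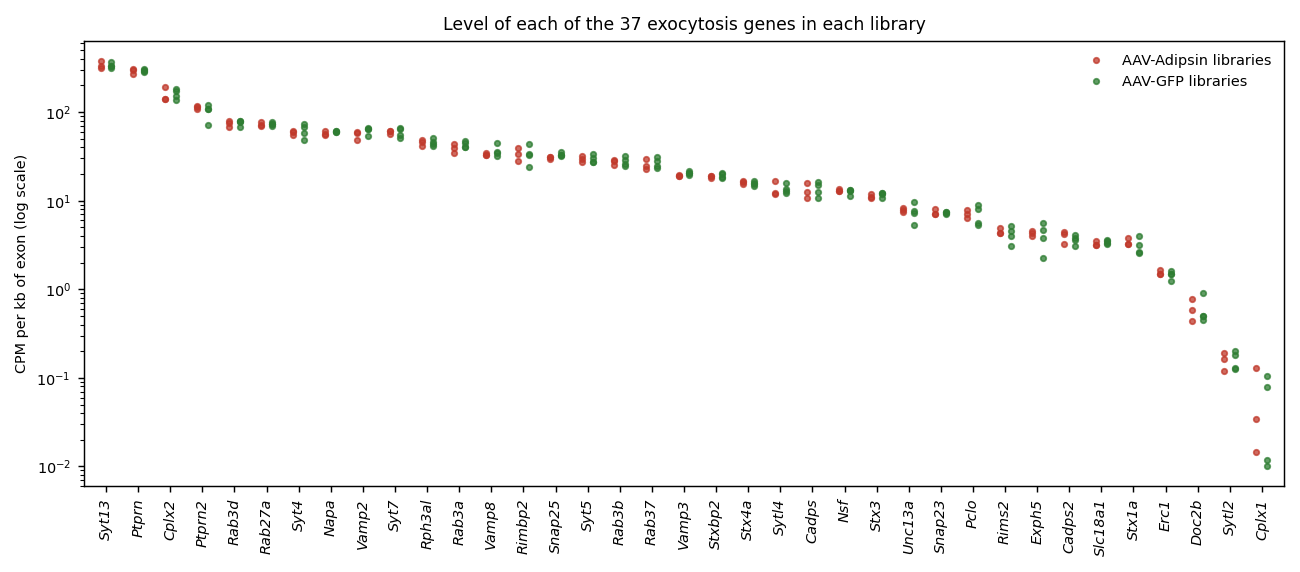
CPM per kilobase of annotated exon (vertical axis, log scale) of each of the 37 genes, ordered by mean level, with 1 point per library, AAV-Adipsin to the left of AAV-GFP. Levels span from 337.5 CPM per kilobase for Syt13 to 0.0548 for Cplx1, while the points of the 2 groups lie together for each gene except at the low end, where counts are few.

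Some well-known members were weakly expressed. Cplx1, the complexin best known from neurons, had 11, 1 and 3 counts in AAV-Adipsin and 1, 7, 1 and 5 counts in AAV-GFP, so it was at or near the floor of 3 counts in most libraries and was not tested. Stx1a, the plasma membrane syntaxin of neuronal exocytosis, had 10.1, 8.56 and 8.55 CPM in AAV-Adipsin and 8.51, 7.04, 6.93 and 10.7 CPM in AAV-GFP. Doc2b, a calcium sensor with high affinity, had 3.37, 1.90 and 2.58 CPM in AAV-Adipsin and 4.00, 1.95, 2.16 and 2.17 CPM in AAV-GFP. It varied most among the members tested, with a coefficient of variation of 30.9% over the 7 libraries, against 4.50% for Rab27a, which varied least. Sytl2, a RAB27 effector, stood at 2.20 ± 0.511 CPM in AAV-Adipsin against 2.23 ± 0.530 CPM in AAV-GFP (SD, n = 3 and 4). Slc18a1, the vesicular monoamine transporter VMAT1, was at 17.8 ± 1.21 CPM in AAV-Adipsin against 18.5 ± 0.932 CPM in AAV-GFP (SD, n = 3 and 4).

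Within families of related genes, the same paralog held the largest share in every library on the per-kilobase scale. Snap25, the plasma membrane SNARE of neurons and endocrine cells, held 80.7 ± 1.54% of the level it shares with the ubiquitous Snap23 in AAV-Adipsin against 81.9 ± 0.992% in AAV-GFP (SD, n = 3 and 4). Among the listed syntaxins, Stx4a and Stx3 held 52.5 ± 0.261% and 36.5 ± 1.37% in AAV-Adipsin against 51.3 ± 2.23% and 38.6 ± 2.54% in AAV-GFP (SD, n = 3 and 4). Stx1a held at most 12.4% in any library. Both Stx3 and Stx4 have been described in fusion of granules beside syntaxin 1A.

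Vamp2, the main granule SNARE of insulin secretion, held 51.1 ± 2.64% of the level of the listed VAMP genes in AAV-Adipsin against 52.1 ± 2.26% in AAV-GFP (SD, n = 3 and 4). Vamp8, which serves granules of acinar and other cells as well, held 31.1 ± 1.46% in AAV-Adipsin and 30.7 ± 2.35% in AAV-GFP (SD, n = 3 and 4). Rab3d held 52.7 ± 4.45% of the level of the 3 Rab3 genes in AAV-Adipsin against 51.4 ± 2.42% in AAV-GFP (SD, n = 3 and 4), ahead of Rab3a at 24.9% to 33.5% and Rab3b at 17.8% to 20.8% of a library. Cplx2 held at least 99.9% of the level of the 2 complexins, and Sytl4 98.5% to 99.3% of that of the 2 synaptotagmin-like genes. Cadps, a priming factor of dense-core granules, held 71.6% to 84.2% of the level it shares with Cadps2. Some minor shares varied more: Cadps2 held 15.8% to 28.4%, Sytl2 0.700% to 1.55%, and Ptprn2 19.7% in AAV-GFP replicate 4, against 26.9% to 29.9% in the AAV-Adipsin libraries and 26.0% to 28.6% in the other AAV-GFP libraries.

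**Figure D2:**
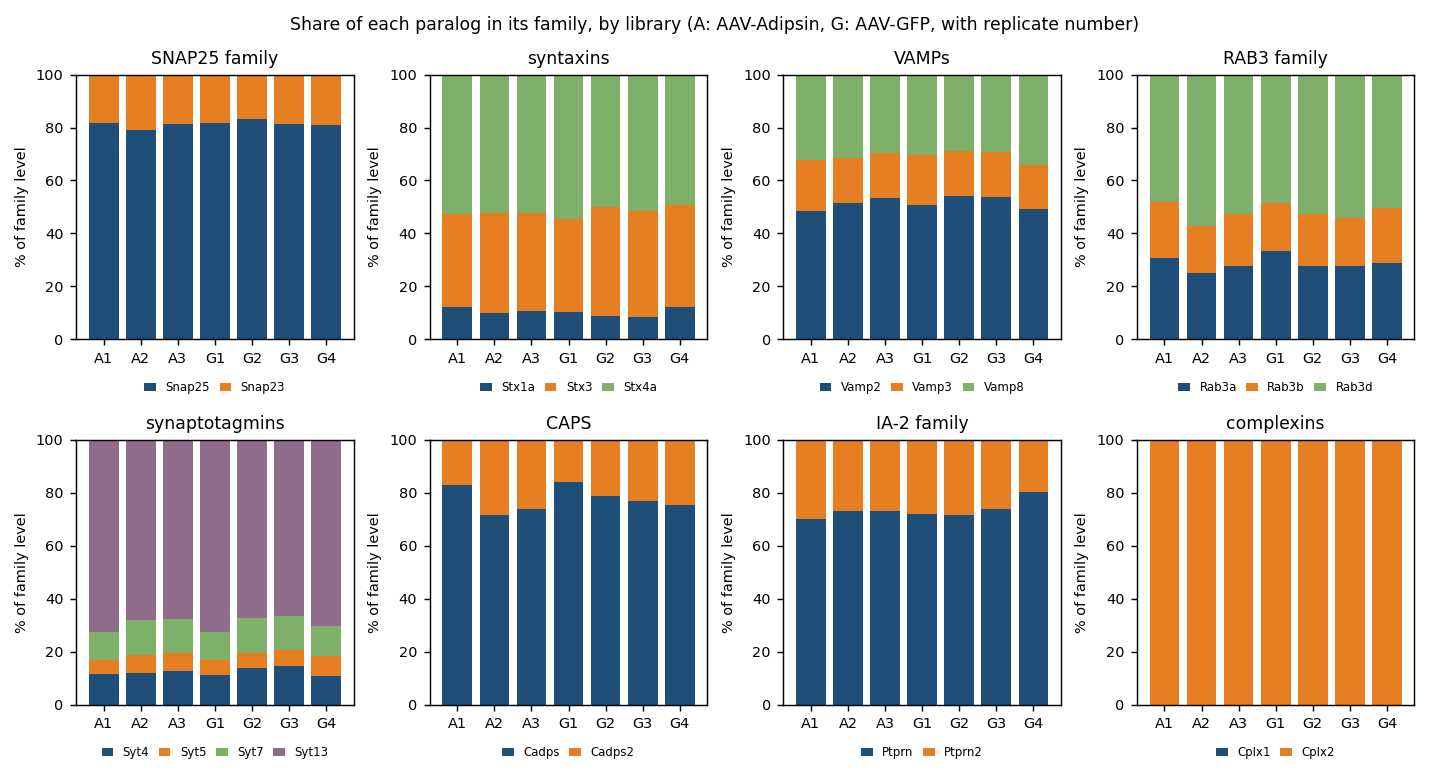
Share of each paralog in the summed level of the listed members of its family (vertical axis, percent of CPM per kilobase). Each library is 1 bar, with AAV-Adipsin libraries (A) to the left of AAV-GFP libraries (G). Snap25, Cplx2, Ptprn and Cadps hold most of their families in every library and Stx1a at most 12.4% of the syntaxins, while Cadps varies from 71.6% to 84.2% and Ptprn reaches 80.3% in AAV-GFP replicate 4.

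Ratios between paralogs do not depend on how libraries are scaled. Between groups, 14 were compared by an exact permutation test, two-sided, over the 35 divisions of the libraries. With so few divisions, p cannot become very small, and a lone ratio could not have passed after adjustment over the 14. The test therefore cannot show that the groups were alike. The smallest exact permutation p was 0.314, for Stx3 over Stx1a, with a log2 ratio of counts of 2.82 ± 0.20 in AAV-Adipsin against 3.04 ± 0.30 in AAV-GFP (SD, n = 3 and 4). Its Benjamini-Hochberg adjusted p over the 14 was 0.800, and the groups overlapped for each of the 14 ratios.

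The study asked what raised systemic adipsin does to islet transcripts 1 month after transduction, a time at which serum glucose was alike in the groups, per its design text. Of the 36 exocytosis genes tested, 0 passed at an adjusted p under 0.05 by edgeR's quasi-likelihood test, where 0.00606% of all 16504 genes did, and 0 had an unadjusted p under 0.05, where 1.16% did. DESeq2 also called 0 of them, where it called 0.0242% of all genes, and limma-voom 0. The 1 gene that edgeR called was Cfd, at an adjusted p of 0.0420. Cfd no longer passed on leaving out AAV-GFP replicate 1 (adjusted p = 1.00), 2 (0.241), 3 (0.455) or 4 (0.525), without AAV-Adipsin replicate 3 (0.0634), without the treatment-named pair (0.0734), without a filter (0.667) and with limma-voom (1.00). Cfd still passed with DESeq2 (adjusted p = 1.15e-18), description style as a term (3.39e-06) and the replicate number as a block (7.33e-07). It also passed without AAV-Adipsin replicate 1 (1.27e-05) or 2 (0.0065). With other scalings or a filter of 1 CPM in 3 libraries, its adjusted p ran from 0.0272 to 0.039. Its log2 fold change lay between 11.3 and 13.9 in every setting, so the call varied but the direction did not. In bulk islets, fewer cells of a type and less RNA per cell cannot be told apart.

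The log2 fold changes of the 36 members, AAV-Adipsin over AAV-GFP, ran from -0.16 to 0.14 with a median of -0.011, which is the median of all genes tested as well. Below 0 lay 19 of the 36, against 53.8% of all genes. Their median size, without regard to sign, was 0.055, against 0.081 over all genes. The standard error (SE) had a median of 0.108 over the members and 0.153 over all genes. The 95% interval of the fold change, which is not adjusted for the number of genes, lay within 1.5-fold either way for 33 of the 36 members, against 62.1% of all genes tested. More abundant genes have narrower intervals, and the members stood high in level. The exceptions were Doc2b (-0.69 to 0.73), Exph5 (-0.54 to 0.67) and Sytl2 (-0.61 to 0.58), and their intervals lay within 2-fold. Without AAV-GFP replicate 4 the fold changes ran from -0.17 for Cadps to 0.28 for Stx1a, 27 of the 36 lay below 0, and 23 changed sign or moved by over 1.5 times in size.

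**Figure D3:**
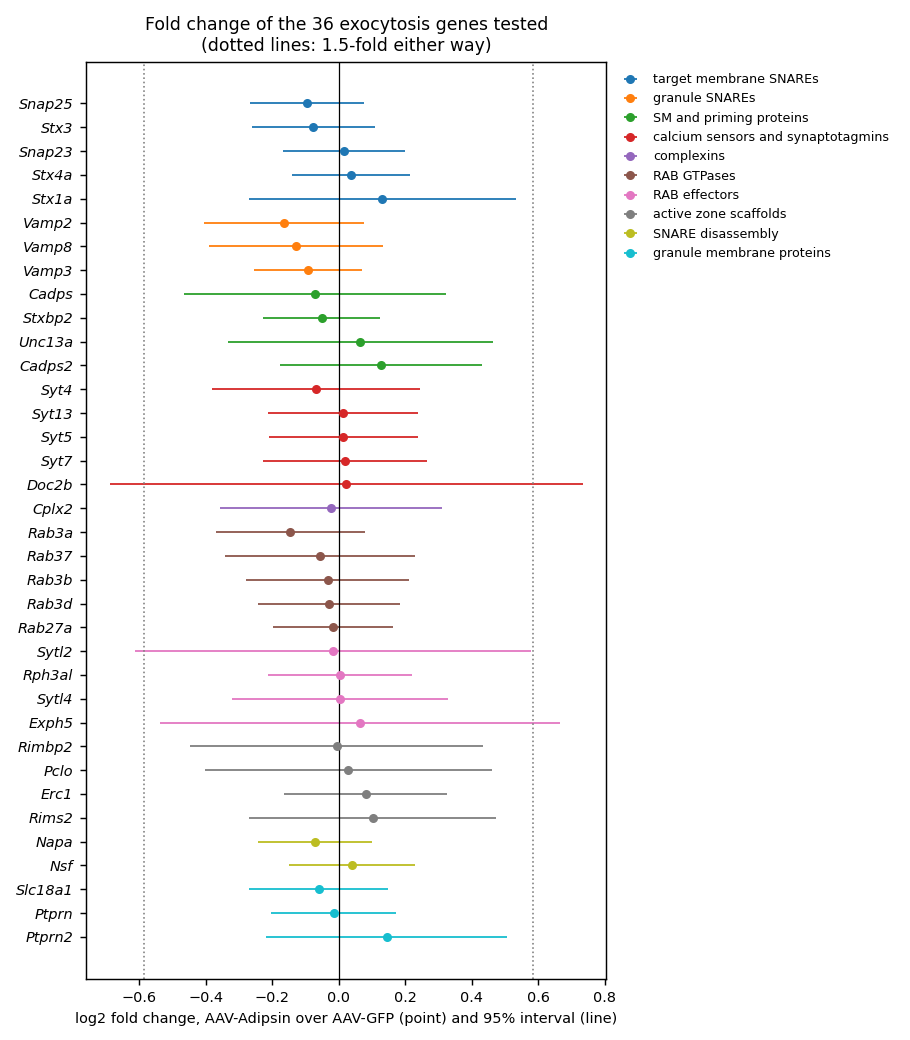
Log2 fold change, AAV-Adipsin over AAV-GFP (horizontal axis; point), with its 95% interval from edgeR (line) for the 36 genes tested, coloured by role, with dotted lines at 1.5-fold either way. Every interval crosses 0, and 33 of 36 lie between the dotted lines.

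Among the plasma membrane SNAREs, Snap25 was the 1 member whose groups did not overlap, where 2.73% of all genes tested did not. It had 213, 203 and 214.0 CPM in AAV-Adipsin, against 221, 240 and 222 CPM in AAV-GFP replicates 1 to 3 and 214.8 CPM in replicate 4. The gap between the highest AAV-Adipsin library and the lowest AAV-GFP library was under 1 CPM. It depends on the scaling, as the groups overlap when counts are divided by library totals alone. The log2 fold change was -0.10 (SE 0.08), and log2 CPM differed by -0.05 within the treatment-named pair and by -0.11 within the db-numbered libraries. Snap25 lies on chromosome 2 from 136713453 to 136782428 (GRCm38, plus strand). The other 4 genes of this group, Snap23, Stx1a, Stx3 and Stx4a, had log2 fold changes from -0.08 to 0.13, the highest being Stx1a, which was at 0.28 without AAV-GFP replicate 4.

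All 3 granule SNAREs tested had fitted values below 0, and none passed. Vamp2 ranked first among the members by edgeR's test (adjusted p = 1.00), with 187, 219 and 228 CPM in AAV-Adipsin and 204, 247, 249 and 247 CPM in AAV-GFP. Its groups overlapped, because AAV-GFP replicate 1 lay below 2 AAV-Adipsin libraries, and the log2 fold change was -0.16 (SE 0.11). Vamp2 (chromosome 11, 69088490 to 69092384, GRCm38, plus strand) differed by -0.13 in log2 CPM within the treatment-named pair and by -0.15 within the db-numbered libraries. With description style as a term its log2 fold change was -0.14, at an edgeR unadjusted p of 0.0322 and an adjusted p of 0.999. It was the 1 member under an unadjusted p of 0.05 in that model, where 2.78% of all genes were.

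Vamp3, a SNARE of recycling membranes and some granules, had 56.7, 55.4 and 54.7 CPM in AAV-Adipsin and 56.4, 59.1, 59.1 and 62.5 CPM in AAV-GFP. Its log2 fold change was -0.09 (SE 0.07), with 0.0071 within the treatment-named pair and -0.13 within the db-numbered libraries. Vamp8 had 76.1, 80.9 and 76.2 CPM in AAV-Adipsin and 74.4, 80.3, 82.1 and 103.2 CPM in AAV-GFP. Its fitted value, -0.13 (SE 0.11), stood beside a single high library, AAV-GFP replicate 4, the library with the lowest sum of the acinar markers (2515 CPM), and was -0.022 without it.

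The RAB GTPases were near 0, with all 5 fitted values below it and between -0.15 and -0.02. Rab3a, the GTPase of docked granules and synaptic vesicles, was the lowest, with 96.2, 77.5 and 87.1 CPM in AAV-Adipsin and 104, 89.8, 90.5 and 101 CPM in AAV-GFP, a log2 fold change of -0.15 (SE 0.10). Its lowest library was AAV-Adipsin replicate 2 and its highest AAV-GFP replicate 1, and the groups overlapped. Exons of Rab3a share 29 bases with Mpv17l2 on the opposite strand, and the strand setting of the counting is not given. Rab3d, which acinar cells also use, had its highest value, 336 CPM, in AAV-Adipsin replicate 2, where the acinar markers summed to 11881 CPM, and 332 CPM in AAV-GFP replicate 3, where they summed to 16523 CPM. AAV-GFP replicate 4 had 329 CPM of Rab3d at 2515 CPM of acinar markers. AAV-Adipsin replicates 1 and 3 had 284 and 313 CPM of Rab3d at 3719 and 3097 CPM of acinar markers. AAV-GFP replicates 1 and 2 had 285 and 324 CPM at 4944 and 8476 CPM. A part of acinar RNA in the Rab3d level was not tested.

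RAB effectors tie granules to the membrane or the cytoskeleton. Sytl4, or granuphilin, which docks granules through RAB27A and syntaxin, had a log2 fold change of 0.0026 (SE 0.14), Rph3al (Noc2) 0.0025 (SE 0.10), Exph5 0.06 (SE 0.26) and Sytl2 -0.02 (SE 0.26). The active zone scaffolds, which hold granules near calcium channels, were Rims2 at 0.10 (SE 0.16), Rimbp2 at -0.0067 (SE 0.19), Pclo (piccolo) at 0.03 (SE 0.19) and Erc1 (ELKS) at 0.08 (SE 0.11). Without AAV-GFP replicate 4 Erc1 was at 0.010, Rims2 at -0.024, Rimbp2 at -0.14 and Pclo at -0.080.

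The priming genes Unc13a (Munc13-1), Cadps and Cadps2 had fitted values of 0.06, -0.07 and 0.13, and Stxbp2, a partner of syntaxins, -0.05. Exons of Unc13a share 495 bases with Colgalt1 on the opposite strand, which had 13550 counts in all against 24908 for Unc13a. The calcium sensors and synaptotagmins lay between -0.07 for Syt4 and 0.02 for Doc2b, and Syt7, a sensor for insulin granule fusion, was at 0.02 (SE 0.11). Cplx2 was at -0.02 (SE 0.15). Of the genes that take SNARE complexes apart, Napa was at -0.07 (SE 0.08) and Nsf at 0.04 (SE 0.08). In Napa, AAV-Adipsin replicates 2 and 3 lay below every AAV-GFP library, and AAV-Adipsin replicate 1 lay above every one. The granule membrane genes were Ptprn at -0.02 (SE 0.08), Ptprn2 at 0.14 (SE 0.16) and Slc18a1 at -0.06 (SE 0.09). Ptprn2, the highest of all members, was at 0.0080 without AAV-GFP replicate 4.

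The wider secretory pathway gave no call either. Of 142 related genes listed, 132 were tested, 0 passed in either direction and 0 had an unadjusted p under 0.05 by edgeR's test, and DESeq2 called 0 of them. Their median log2 fold change was -0.0061, with 64 above 0 and 68 below. Of the 23 other SNAREs tested, 8 were above 0 and 15 below, including Stx12, an endosomal syntaxin, at -0.09 (SE 0.07). Of the 13 genes of the exocyst, which tethers vesicles, and its regulators, 9 were above 0, including Exoc2 at 0.08 (SE 0.09). Among 12 voltage-gated calcium channel genes, 7 were above 0, and Cacna1c, an L-type channel subunit, stood at 88.5 ± 9.36 CPM in AAV-Adipsin against 78.1 ± 12.7 CPM in AAV-GFP (SD, n = 3 and 4). Of 13 genes of granule cargo, 11 were below 0, with a median of -0.11, such as Scg5 at -0.12 (SE 0.09) and the granin gene Scg2 at -0.14 (SE 0.13). Of the 17 other synaptotagmin and C2 domain genes tested, 11 were above 0, with Syt17 at 0.41 (SE 0.22), and of the 22 other RAB and scaffold genes 12 were, with Rab3il1 at 0.51 (SE 0.26). The 16 genes of membrane retrieval had 8 on either side of 0, and Dnm1, a dynamin, was at -0.29 (SE 0.19).

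Members were also compared between the description styles. With style and treatment in 1 model, the fitted difference between styles was larger in size than that between treatments for 30 of 36 members, against 74.3% of all genes. Its median size was 0.145 on the log2 scale for members and 0.207 for all genes. By edgeR's quasi-likelihood test 4 members passed, where 9.79% of all genes did. Vamp2 and Cadps2 were lower in the treatment-named libraries, as 5.57% of all genes were, and Sytl4 and Doc2b were higher, as 4.22% were. In 19 of 36 members the libraries of the styles did not overlap, against 37.6% of all genes.

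For Sytl4 the 2 treatment-named libraries had 86.5 and 81.3 CPM and the 5 db-numbered ones 61.1 to 69.9 CPM, a log2 difference of 0.39 (SE 0.07, edgeR adjusted p = 0.0237). Doc2b had 3.37 and 4.00 CPM against 1.90 to 2.58 CPM, a difference of 0.77 (SE 0.19, adjusted p = 0.0437). Vamp2 had 187 and 204 CPM against 219 to 249 CPM, a difference of -0.27 (SE 0.06, adjusted p = 0.0353). Cadps2 had 31.3 and 29.3 CPM against 34.0 to 42.0 CPM, a difference of -0.36 (SE 0.08, adjusted p = 0.0322). In these 4 genes the libraries of the styles did not overlap, but the genes were picked by this same comparison. Without any 1 library the number of members called ranged from 0 to 13. It was 0 on leaving out any AAV-Adipsin library or AAV-GFP replicate 1 or 3, where 39 to 668 of all genes were called, 4 on leaving out AAV-GFP replicate 2, where 1099 were, and 13 on leaving out AAV-GFP replicate 4, where 4347 were. DESeq2 called 10, where it called 15.3% of all genes. What the description styles stand for is not given, and with replicate 1 of both groups on the same side they cannot be told apart from any other property those 2 libraries share.

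**Figure D4:**
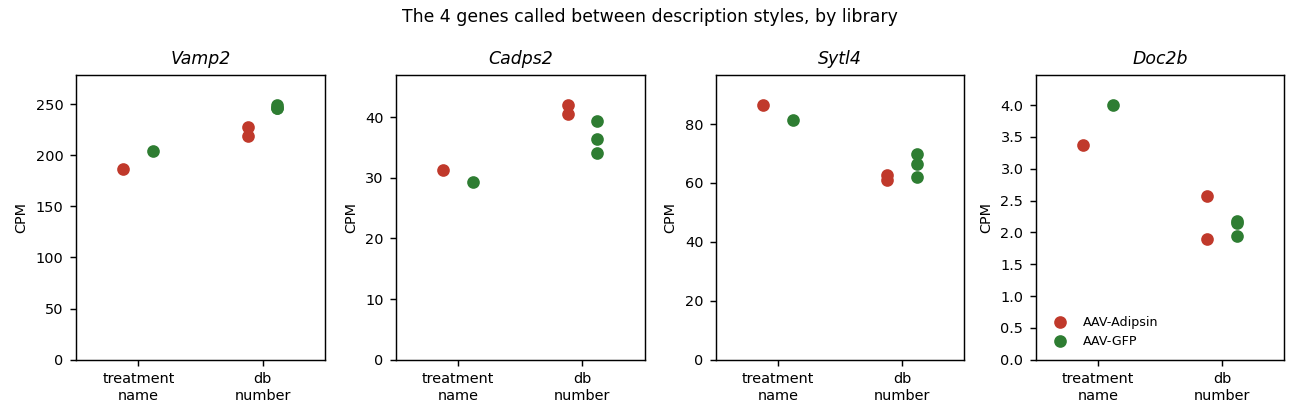
CPM (vertical axis) of Vamp2, Cadps2, Sytl4 and Doc2b in each library, by how the library is described, with AAV-Adipsin to the left of AAV-GFP. The 2 treatment-named libraries lie below the other 5 for Vamp2 and Cadps2 and above them for Sytl4 and Doc2b. These genes were picked by this same comparison of styles.

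AAV-GFP replicate 4 had low values of the members with long transcripts. Exph5, a RAB27 effector with 10.5 kb of annotated exon, had 23.8 CPM there, against 40.1, 59.4 and 49.0 CPM in the other AAV-GFP libraries. Ptprn2 had 619 CPM against 928 to 1033, Unc13a 66.7 CPM against 90.8 to 123, Rimbp2 189 CPM against 264 to 344 and Rims2 31.7 CPM against 41.7 to 54.5. Of the 13 members with 6 kb or more of exon, 12 were lower in this library than in each of the other AAV-GFP libraries, with Cadps2 as the exception. Of the 4618 genes of that length tested, 51.7% were. None of the 6 members under 3 kb was, against 19.4% of 5809 genes, and of these Stx1a, Syt5, Vamp3 and Vamp8 had their highest values there.

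The median difference in log2 CPM between AAV-GFP replicate 4 and the mean of the other AAV-GFP libraries was -0.44 over the 13 long members and 0.17 over the 6 short ones. It was -0.15 and 0.16 over all genes of these lengths. The same median over long members lay between -0.03 and 0.22 for the other AAV-GFP libraries, and between -0.07 and 0.05 for each AAV-Adipsin library against the rest of its group. AAV-GFP replicate 4 also had the highest share of mitochondrial counts, 2.67%, against 1.13% to 1.90% in the AAV-Adipsin libraries and 1.22% to 1.68% in the other AAV-GFP libraries. The same library had the highest sum of delta cell markers, 895 CPM, against 563 to 595 CPM in AAV-Adipsin and 459 to 552 CPM in the other AAV-GFP libraries. Its mesenchymal markers summed to 265 CPM, against 106 to 142 CPM and 38.4 to 81.9 CPM. Its beta cell markers, at 203097 CPM, lay within the range of the others. The part of these properties in the result was not tested. Without that library the median log2 fold change of the 13 long members, AAV-Adipsin over AAV-GFP, was -0.07, against 0.04 with it, and Exph5, Unc13a, Rims2, Nsf, Syt7 and Pclo went below 0. The length classes were chosen after the values were seen.

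**Figure D5:**
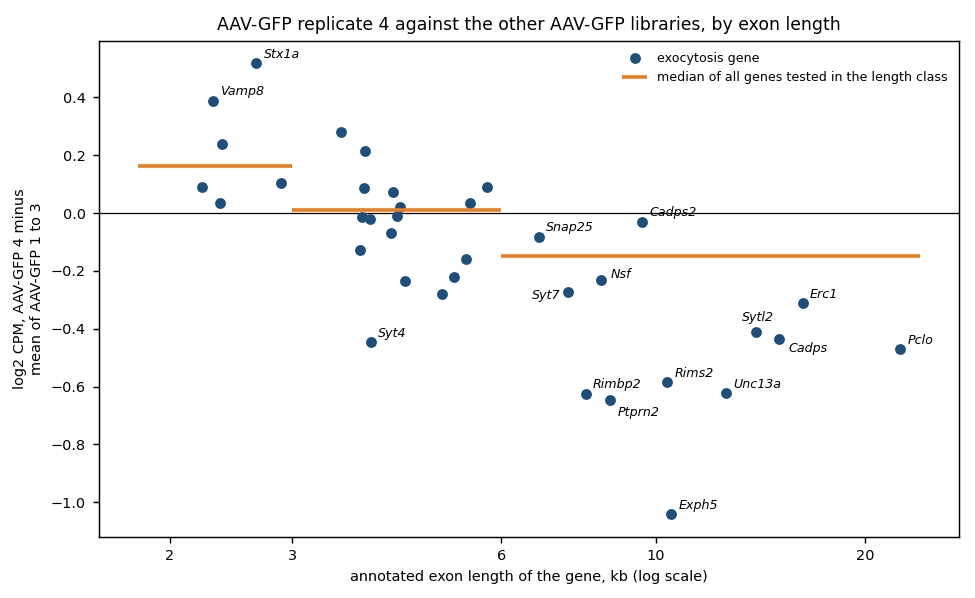
Log2 CPM of AAV-GFP replicate 4 minus the mean of the other AAV-GFP libraries (vertical axis) against annotated exon length in kb (horizontal axis, log scale), with 1 point for each of the 36 genes tested and lines for the median of all genes tested in 3 length classes. Long members lie below 0, down to -1.04 for Exph5, and members under 3 kb lie above it.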

How the data were processed

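Islet messenger RNA of 7 db/db mice was sequenced from stranded libraries, per the labels' protocols, and aligned with STAR to GRCm38, per the submitters' processing notes. Which program counted the reads, with what strand setting and which annotation, no source used here states. The authors deposited whole, unscaled read counts per Ensembl gene in 1 table, with all 7 sample columns used. Of 51912 identifiers, 51719 matched GENCODE mouse release 21 of GRCm38, which gave symbols, coordinates and exon lengths. Exons of 12 members overlap another annotated gene, 11 of them on the opposite strand.

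Libraries were scaled by trimmed mean of M values (TMM) in edgeR 4.0.16 (R 4.3.3) after filterByExpr, and AAV-Adipsin was tested against AAV-GFP by the robust quasi-likelihood test, two-sided, with Benjamini-Hochberg adjustment over all 16504 genes tested. A second model added description style. Standard errors and intervals come from the F statistic. Ratios of paralogs carried 0.5 added counts, and differences of log2 CPM 0.01 added CPM. DESeq2 1.42.0 and limma-voom (limma 3.58.1), other scalings and filters, the replicate number as a block and removal of libraries were the 16 alternatives. The fit was tested on simulated data. Members and lists were chosen with earlier results of these data known. Values per library are given for the 8 most abundant members, the 6 with the smallest p, those whose groups do not overlap, the extremes of variation and those not tested; other genes that are described this way were chosen after their values were seen. Per list of related genes, up to 3 with the smallest p could be named. Replicates are separate mice, per the labels.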

Additional observations from a re-analysis of the deposited data

Results flagged for a closer look

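In AAV-GFP, with its 4 libraries, a library far from the others was found for 3 of the 37 genes, and for 8.16% of all genes tested, where chance gives such a gap in about 1 in 20 genes. Of those 1347 genes, 735 had AAV-GFP replicate 4 apart and 485 replicate 1. Vamp2 had 204 CPM in AAV-GFP replicate 1, below the 247 to 249 CPM of the other AAV-GFP libraries. Doc2b had 4.00 CPM in the same library, above 1.95 to 2.17 CPM in the others. AAV-Adipsin replicate 1, the other library described by a treatment name, was at the same end of its group for both genes. It had 187 CPM of Vamp2, against 219 and 228 CPM in the other AAV-Adipsin libraries. For Doc2b it had 3.37 CPM against 1.90 and 2.58 CPM, values that are evenly spread. Nsf, the ATPase that takes SNARE complexes apart, had 93.8 CPM in AAV-GFP replicate 4, below 109 to 111 CPM in the other AAV-GFP libraries.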

How the results depend on the processing

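None of the 36 members was called in any of the 16 alternatives, and the smallest adjusted p of a member was 0.695. The number of all genes called was 4 with DESeq2, 0 with limma-voom, without a filter and without the treatment-named pair, and 0 to 1 without single libraries. Members called between description styles were 10 with DESeq2 and 0 to 13 without single libraries, where 2528 and 39 to 4347 of all genes were called. The median log2 fold change of the members was -0.048 with the replicate block and -0.050 to 0.022 without single libraries. Replicate numbers were not taken to pair the mice. Deviations from the group means correlated at r = 0.661, -0.011 and 0.0071 for numbers 1, 2 and 3. Number 1 is also the treatment-named pair, so its correlation cannot tell a pairing from description style. Genes with an unadjusted p under 0.05 by edgeR's test numbered 1109 with the block, against 191 in the main fit.

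Over the 16 alternatives, fitted log2 fold changes changed sign in 22 of 36 members, among them Rims2, at 0.10 in the main fit. The cause was not tested. With the replicate block they were -0.060 for Unc13a, 0.041 for Rab3b, -0.043 for Syt7, -0.022 for Syt13, -0.063 for Sytl4, -0.018 for Rims2, -0.014 for Doc2b, -0.015 for Nsf, -0.12 for Exph5 and -0.058 for Pclo. With library totals alone they were 7.1e-05 for Rab3d, 0.012 for Rab27a, 0.012 for Sytl2, 0.0011 for Cplx2, 0.016 for Rimbp2 and 0.013 for Ptprn. With description style as a term they were -0.0077 for Syt13, 0.0066 for Sytl2, -0.041 for Sytl4 and -0.0072 for Doc2b. With limma-voom Sytl4 was at -0.0089 and Rimbp2 at 0.012, and with at least 1 CPM in 3 libraries Rimbp2 was at 0.0029. Without the treatment-named pair they were -0.013 for Syt13, 0.069 for Sytl2, -0.084 for Sytl4, 0.026 for Rimbp2, 0.022 for Ptprn and -0.049 for Pclo, and the log2 ratio differences -0.016 for Vamp8 to Vamp2, 0.0028 for Syt5 to Syt7, -0.78 for Cplx1 to Cplx2 and 0.17 for Sytl2 to Sytl4.

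Without single libraries the fold changes that changed sign ran from -0.037 to 0.052 for Snap23, -0.069 to 0.23 for Unc13a, -0.078 to 0.042 for Rab3b, -0.082 to 0.032 for Rab3d, -0.049 to 0.021 for Rab27a, -0.17 to 0.034 for Rab37, -0.17 to 0.021 for Syt4, -0.037 to 0.077 for Syt5, -0.045 to 0.083 for Syt7, -0.074 to 0.077 for Syt13, -0.18 to 0.15 for Sytl2, -0.18 to 0.098 for Sytl4, -0.20 to 0.071 for Cplx2, -0.024 to 0.23 for Rims2, -0.14 to 0.15 for Rimbp2, -0.20 to 0.34 for Doc2b, -0.014 to 0.072 for Nsf, -0.036 to 0.061 for Rph3al, -0.13 to 0.27 for Exph5, -0.25 to 0.059 for Cadps, -0.043 to 0.032 for Ptprn, -0.080 to 0.18 for Pclo and -0.17 to 0.017 for Ins2.
The log2 ratio differences ran from -0.026 to 0.14 for Vamp3 to Vamp2, -0.025 to 0.12 for Vamp8 to Vamp2, -0.019 to 0.26 for Rab3d to Rab3a, -0.14 to 0.061 for Syt13 to Syt7, -0.10 to 0.12 for Syt5 to Syt7, -0.26 to 0.84 for Cplx1 to Cplx2 and -0.24 to 0.34 for Sytl2 to Sytl4.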
